A study of Mus musculus with 2 samples.

Results

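The 3 Lgr receptor genes Lgr4, Lgr5 and Lgr6 and the 4 TCF/LEF transcription factor genes Lef1, Tcf7, Tcf7l1 and Tcf7l2 were followed through the mouse mandibular epithelium. They were named by symbol, with earlier results of these data known. They are 7 of the 27998 genes counted at E12.0 and 7 of the 31053 counted at E9.5. Each carries the same Ensembl identifier in both gene lists. Lgr receptors bind R-spondins, secreted proteins that take the ligases ZNRF3 and RNF43 off the cell surface, so that Frizzled receptors stay there and WNT signaling is stronger. TCF/LEF proteins bind DNA at WNT target genes, where they activate transcription together with beta-catenin and repress it with TLE co-repressors in its absence. Lef1 is known as a gene without which mouse teeth stop growing, Lgr5 as a marker of epithelial stem cells, and Tcf7l1 as the family member that acts mainly as a repressor.

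At E12.0, the mandibular epithelium of 6 littermates of the genotype K14Cre;R26mT/mG was pooled, and its GFP-positive cells were sorted into 1 10x Genomics library. The Cre is driven by the keratin 14 promoter, and the reporter turns from membrane tomato to membrane GFP where it acts, so cells without that history are not in the library. At E9.5, the mandibular arches of 8 littermates of the same genotype were pooled without sorting into 1 library that also holds mesenchyme, endoderm, mesoderm, endothelium, neural crest and other cells. No animal was given a treatment, and no sample is a replicate of another, so no test between groups was possible and every interval below covers counting error only.

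Of 11663 and 14293 barcodes, 11355 at E12.0 and 12744 at E9.5 had 200 to 5500 genes and at most 10% mitochondrial UMIs. A UMI is a distinct captured transcript molecule. The kept cells had medians of 6349 and 13460 UMIs, and 44 kept barcodes were shared between the libraries. Expression is given as CPM, a gene's UMIs in all cells of a group per 1000000 UMIs counted there, followed by its exact 95% Poisson interval. Mesenchymal transcripts were scarce in the sorted E12.0 library, where Prrx1 and Twist1 stood at 0.0898 and 0.180 CPM, beside 426 CPM of Epcam and 680 CPM of Krt14.

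E12.0 cells were assigned to zones by UMIs of genes that the study mapped in the tissue. The Shh zone (258 cells with at least 2 Shh UMIs) covers initiation knot cells, and carried Fgf20 at 23.6 CPM and Dkk4 at 56.4 CPM, both under 7 CPM in the other gated zones. It also held Foxa1 at 9.15 and Foxa2 at 10.6 CPM, markers of tongue epithelium, so it is not a pure knot population. Pkp1, a periderm marker, was at 88.1 CPM there, and whether this level stems from periderm cells was not tested. The Irx1 zone (591 cells) is dental, with Irx2 at 106 CPM against 58.8 CPM or less in the other gated zones. The Gjb2+Gjb6 zone (1175 cells) and the anterior Cxcl14 zone (3203 cells) carried Tfap2b at 1057 and 794 CPM. The study mapped Gjb6 to ventral epithelium and Gjb2 to the lateral part of the anterior epithelium, so the Gjb2+Gjb6 zone can hold both. The Dmrt2 zone (566 cells) is posterior. Its Rtl3 stood at 29.8 CPM, against 17.3 CPM or less in the other gated zones, and its Col14a1 at 23.6 CPM, against 28.9 CPM in the ungated cells, so other posterior cells remain among the 5480 ungated ones. A gate of 2 Dmrt2 UMIs left only 195 cells, and 1 UMI was used. Median depth ran from 5956.5 UMIs in ungated cells to 7679 in the Irx1 zone.

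Lgr5 and Lgr6 were distributed over different zones, whereas Lgr4 was found in all of them. The zones are ranked here among each other and the ungated cells, and cells with tongue markers are given below. Lgr5 was highest in the Irx1 zone, at 35.7 CPM (30.6 to 41.4), and in the Shh zone, at 26.5 CPM (20.0 to 34.5). It stood at 11.7 CPM (10.6 to 12.9) in ungated cells, 9.35 CPM (6.62 to 12.8) in the Dmrt2 zone, 2.37 CPM (1.47 to 3.63) in the Gjb2+Gjb6 zone and 0.970 CPM (0.608 to 1.47) in the Cxcl14 zone. In this order the Shh zone overlapped the Irx1 zone and the Dmrt2 zone the ungated cells, while the Cxcl14 and Gjb2+Gjb6 zones lay below all others. A Lgr5 UMI was found in 19.8% of Irx1 zone cells and 0.562% of Cxcl14 zone cells, which became 10.8% and 0.232% when every cell was thinned to 4000 UMIs.

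Lgr6 showed the opposite preference among the large zones. Its level was 74.2 CPM (62.9 to 86.9) in the Shh zone, 57.7 CPM (52.8 to 63.0) in the Gjb2+Gjb6 zone and 29.4 CPM (27.3 to 31.8) in the Cxcl14 zone. The Irx1 zone had 12.0 CPM (9.10 to 15.4), the ungated cells 6.95 CPM (6.1 to 7.89) and the Dmrt2 zone 2.22 CPM (1.01 to 4.21), and only the Shh and Gjb2+Gjb6 zones, whose intervals touch at 62.9 and 63.0 CPM, overlapped. In the Cxcl14 zone 668 UMIs of Lgr6 and 22 of Lgr5 were counted, so that Lgr6 made up 96.8% of them (95.2% to 98.0%, exact binomial interval). The Lgr6 share was 96.1% (94.0% to 97.5%) in the Gjb2+Gjb6 zone and 73.7% (67.2% to 79.5%) in the Shh zone. It was 25.1% (19.7% to 31.2%) in the Irx1 zone and 19.1% (9.15% to 33.3%) in the Dmrt2 zone. In the Shh zone both receptors were counted at 20 CPM or more, but 52 of its 55 Lgr5 UMIs lay in cells with 2 to 4 Shh UMIs, close to the gate.

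Lgr4 varied least of the 3 receptors. It ranged from 74.2 CPM (62.9 to 86.9) in the Shh zone to 119 CPM (109 to 129) in the Irx1 zone, with a UMI in 42.6% and 58.5% of the cells. The Dmrt2 zone at 107 CPM (97.5 to 118) and the Gjb2+Gjb6 zone at 101 CPM (94.4 to 108) overlapped each other and lay above the Cxcl14 zone at 76.9 CPM (73.3 to 80.6).

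Among the transcription factors, Lef1 and Tcf7l2 peaked in different zones. From this same library the study had reported Lef1 as differentially expressed in the anterior epithelium and Tcf7l2 in the posterior oral epithelium. It had also inferred targets of LEF1 in the initiation knot. The levels below are therefore not independent of that result. Lef1 was highest in the Shh zone, at 382 CPM (356 to 409), followed by the Gjb2+Gjb6 zone at 271 CPM (260 to 282). The Cxcl14 zone at 176 CPM (170 to 181) and the Irx1 zone at 169 CPM (158 to 181) overlapped, and the Dmrt2 zone was lowest at 75.6 CPM (67.3 to 84.5). A Lef1 UMI was present in 85.3% of Shh zone cells and 35.9% of Dmrt2 zone cells, or 68.4% and 22.1% after thinning. Tcf7l2 stood at 362 CPM (343 to 381) in the Dmrt2 zone. In the other gated zones and the ungated cells it ran from 79.0 CPM (71.4 to 87.3), in the Irx1 zone, to 148 CPM (144 to 153), in ungated cells. It was detected in 85.3% of Dmrt2 zone cells, 72.1% after thinning. With the gate at 2 Dmrt2 UMIs, a group chosen after its values were seen, Tcf7l2 was at 376 CPM and Lef1 at 79.7 CPM.

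Lef1 made up 78.1% (75.4% to 80.6%) of the summed Lef1 and Tcf7l2 UMIs in the Shh zone and 17.3% (15.6% to 19.1%) in the Dmrt2 zone. The share was 68.1% in the Irx1 zone, 68.6% in the Gjb2+Gjb6 zone, 59.9% in the Cxcl14 zone and 41.5% in ungated cells. All of these differ beyond their intervals except the Irx1 and Gjb2+Gjb6 zones.

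Tcf7, which encodes TCF1, was sparse at E12.0. It was counted at 20.7 CPM (15 to 27.9) in the Shh zone, 11.6 CPM (8.75 to 15) in the Irx1 zone and 10.6 CPM (8.58 to 13.0) in the Gjb2+Gjb6 zone. The other gated zones and the ungated cells had 4.68 to 7.01 CPM, and no zone had a Tcf7 UMI in more than 13.2% of its cells. Tcf7l1, which encodes TCF3, varied least of the 4 factors. Its level ran from 92.0 CPM (79.4 to 106) in the Shh zone and 99.7 CPM (91.1 to 109) in the Irx1 zone to 147 CPM (142 to 152) in the Cxcl14 zone, where it was highest.

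**Figure D1:**
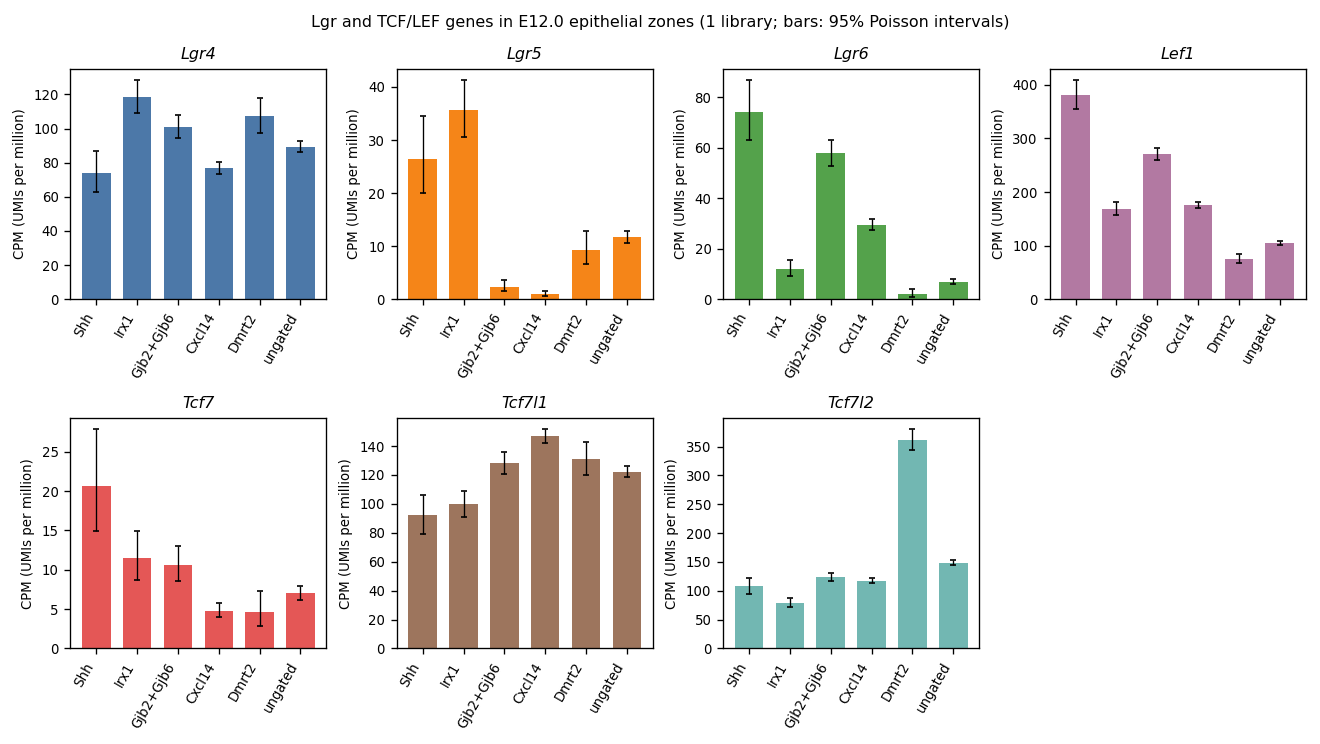
Expression of the 7 genes in the E12.0 zones, as CPM on a separate linear axis per gene; bars are single-library values and error bars their exact 95% Poisson intervals. Lgr5 is tall in the Shh and Irx1 zones, Lgr6 and Lef1 in the Shh and Gjb2+Gjb6 zones, and Tcf7l2 in the Dmrt2 zone.

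To ask whether the genes follow the amount of the gate gene, all kept E12.0 cells, of whatever zone, were binned by its UMIs. Along Shh, Lef1 was at 147 CPM (144 to 150) in the 10888 cells without a Shh UMI, 241 CPM (218 to 267) at 1 UMI, 287 CPM (258 to 319) at 2 to 4, 534 CPM (475 to 599) at 5 to 9 and 481 CPM (408 to 563) at 10 or more. Lgr6 was at 19.8, 26.5, 50.4, 88.4 and 140 CPM in the same bins. Both genes were thus higher in every bin from 2 Shh UMIs on than in cells without Shh, and the 2 highest bins overlapped for each gene.

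Lgr5 peaked in the cells of low Shh counts. It was at 8.18 CPM (7.54 to 8.86) without Shh, 38.7 CPM (29.6 to 49.9) at 1 UMI and 42.9 CPM (32.1 to 56.3) at 2 to 4 UMIs, then at 5.53 CPM (1.14 to 16.2) at 5 to 9. At 10 or more Shh UMIs no Lgr5 UMI was found (0 of 36 cells, which allows a share of up to 8.33%). Tcf7, in contrast, was at 6.82 CPM (6.24 to 7.44) without Shh and 49.6 CPM (28.4 to 80.6) at 10 or more. The bins had between 36 and 10888 cells and median depths of 6327 to 7520 UMIs.

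The Shh-positive cells with and without tongue markers differed in Lgr5, and the intervals of Lgr6 touched. In the 24 Shh zone cells with a Foxa1 or Foxa2 UMI, Lgr5 was at 83.5 CPM (49.5 to 132) and Lgr6 at 32.5 CPM (13.1 to 66.9). In the other 234 Shh zone cells, Lgr5 was at 19.9 CPM (14.0 to 27.4) and Lgr6 at 79.0 CPM (66.8 to 92.9). Lef1 was at 218 CPM (160 to 290) and 401 CPM (373 to 431). The 103 cells with at least 2 Foxa1 and Foxa2 UMIs that missed the Shh gate, a group chosen after its values were seen, had Lgr5 at 44.3 CPM (31.9 to 59.9) and Lgr6 at 11.6 CPM (5.79 to 20.8). Lgr5 was thus higher in both groups of Foxa-positive cells than in the Shh zone without Foxa UMIs. The Irx1 zone, with Lgr5 at 35.7 CPM (30.6 to 41.4), lay below the Foxa-positive Shh zone cells and overlapped the other Foxa-positive group.

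Along Cxcl14, Lgr6 and Lef1 were higher in cells with more UMIs, and Lgr5 was found mainly in cells with few or none. From 0 through 1 to 4, 5 to 9 and 10 to 19 to at least 20 Cxcl14 UMIs, Lgr6 was at 7.68, 12.1, 22.0, 38.6 and 57.6 CPM, with no overlap of intervals between bins. Lef1 was at 117, 121, 158, 208 and 260 CPM, and Lgr5 at 18.3, 7.09, 1.12, 1.45 and 2.08 CPM. Median depth in these bins was 6273, 6025, 6014, 6520.5 and 7962 UMIs. The bins cross zones, and those of 5 or more Cxcl14 UMIs also hold Gjb2+Gjb6 zone cells. In that zone Lgr6 was at 57.7 CPM and Lef1 at 271 CPM. The part of zone composition in these levels was not tested. Along Dmrt2 there was a step and no gradient. Tcf7l2 was at 130 CPM (127 to 132) without Dmrt2, 334 CPM (314 to 355) at 1 UMI, 354 CPM (323 to 387) at 2 to 3 and 349 CPM (288 to 420) at 4 or more, and Lef1 at 160, 79.4, 85.2 and 78 CPM.

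**Figure D2:**
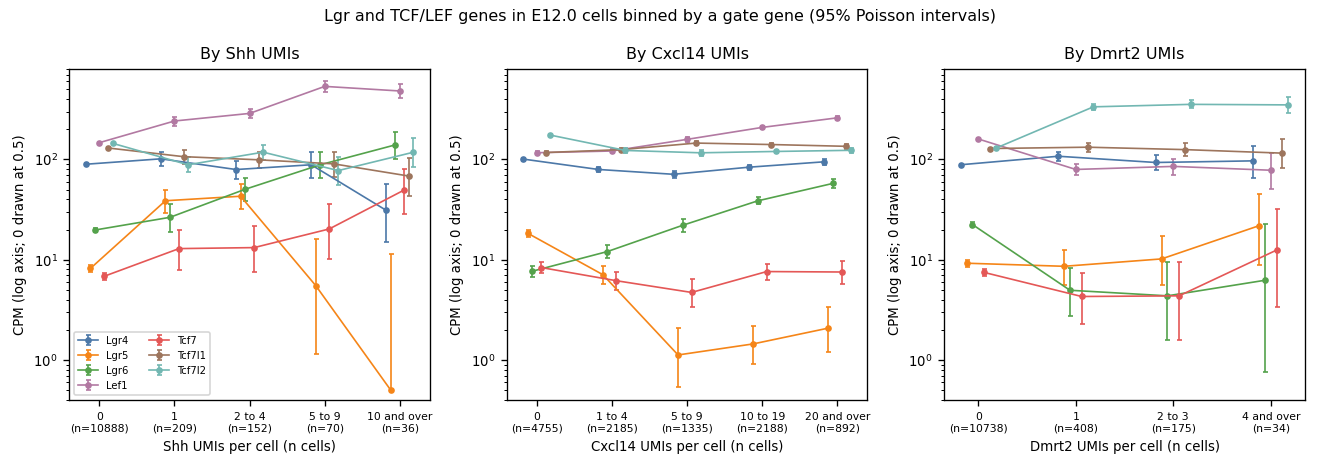
CPM of the 7 genes, on a log axis, in E12.0 cells binned by their Shh, Cxcl14 or Dmrt2 UMIs, with exact 95% Poisson intervals and the cells per bin under each bin; a CPM of 0 is drawn at 0.5. Lgr5 is highest at 1 to 4 Shh UMIs and has no UMI at 10 or more, while Lgr6 and Lef1 are higher in bins of more Shh or more Cxcl14.

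Zones were then compared in pairs by size, with the cutoffs of the study's marker criteria. A gene was called where its CPM ratio was at least 1.3 and the higher group had a UMI in 15% or more of its cells, and a gene with 15% in neither group was not eligible. The share of all eligible genes called, the background, is given with the counts. The median log2 ratio of all eligible genes lay between -0.04 and 0.09 in the 8 comparisons.

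The Shh zone, which holds knot cells and also UMIs of tongue markers and of the periderm marker Pkp1, was set against the dental Irx1 zone. Unlike Irx1 zone cells, Shh zone cells could also pass the other gates. The part of this difference in the ratios below was not tested. Of the 7 genes, 3 were called higher (14.7% of eligible genes were) and 2 lower (14% of eligible genes). Lgr6 was 6.2-fold higher in the Shh zone (4.57 to 8.52, exact interval of the ratio) and Lef1 2.26-fold higher (2.05 to 2.49). Tcf7l2 was 1.36-fold higher (1.15 to 1.61), a call that was lost under 6 of 17 alternatives, among them every gate lower, every gate higher, at most 5% mitochondrial UMIs, no called doublets and cells with Xist and no Y-linked UMI. Lgr4 was lower, at a ratio of 0.626 (0.520 to 0.748). The Lgr5 ratio of 0.743 (0.538 to 1.01) met the criterion but includes 1, and with every gate lower it turned to a log2 ratio of 0.09. In the 234 Shh zone cells without a Foxa1 or Foxa2 UMI, Lgr5 was at 19.9 CPM (14.0 to 27.4). The Irx1 zone had 35.7 CPM (30.6 to 41.4).

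Between the Cxcl14 and Dmrt2 zones, anterior and posterior to the dental epithelium, 2 genes were called higher (background 8.24%) and 2 lower (background 12%). Lgr6 was 13.3-fold higher in the Cxcl14 zone (6.96 to 29.2) and Lef1 2.32-fold higher (2.07 to 2.62), while the ratios of Tcf7l2 and Lgr4 were 0.325 (0.304 to 0.346) and 0.716 (0.645 to 0.798). The Lgr6 call rests on a share of 16.1% of Cxcl14 zone cells, close to the 15% cutoff, and was lost under 4 of 16 alternatives, those in which that share falls under the cutoff. Lgr5, at a ratio of 0.104 (0.0584 to 0.180), and Tcf7, at 1.03 (0.628 to 1.77), were not eligible, and Tcf7l1 at 1.12 (1.02 to 1.23) was not called.

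Dental and anterior zones differed in all 3 receptors. Between the Irx1 and Cxcl14 zones 2 genes were called higher (background 11.2%), Lgr5 at 36.8-fold (23.5 to 60.2) and Lgr4 at 1.54-fold (1.40 to 1.69). The 3 called lower (background 10.2%) were Lgr6 at 0.406 (0.306 to 0.530), Tcf7l1 at 0.679 (0.617 to 0.747) and Tcf7l2 at 0.674 (0.604 to 0.749). The Lgr6 call was lost under the same 4 alternatives and the Tcf7l2 call with every gate lower, at a ratio of at least 2 and in cells with Xist and no Y-linked UMI. The Tcf7l1 call was lost at that ratio and with at most 5% mitochondrial UMIs. Lef1 had a ratio of 0.963 (0.893 to 1.04).

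Between the Irx1 and Dmrt2 zones, Lgr5 at 3.81-fold (2.67 to 5.57) and Lef1 at 2.24-fold (1.96 to 2.56) were called higher (background 7.31%). Tcf7l2 at 0.219 (0.195 to 0.245) and Tcf7l1 at 0.762 (0.672 to 0.863) were called lower (background 9.56%). The Tcf7l1 ratio stands at the cutoff and was lost under 8 of 16 alternatives. Between the Gjb2+Gjb6 and Cxcl14 zones, which the gates let share Cxcl14, 3 genes were called higher (background 2.67%) and 0 lower (background 2.9%). Lgr6 was 1.96-fold (1.74 to 2.20), Lef1 1.54-fold (1.47 to 1.62) and Lgr4 1.31-fold (1.21 to 1.42) higher in the Gjb2+Gjb6 zone. The Lgr4 call was lost under 5 of 16 alternatives.

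Each library pooled male and female embryos, so cells can be split into sets that stem largely from different embryos. In cells with a Xist UMI and no Y-linked UMI, and separately in cells with a Y-linked UMI, all 32 called ratios of the 8 comparisons kept their direction. The log2 ratio of Lgr6 between the Shh and Irx1 zones was 3.40 (79 against 202 cells) and 2.44 (131 against 296 cells). That of Tcf7l2 between the Cxcl14 and Dmrt2 zones was -1.64 and -1.52, and that of Lgr5 between the Irx1 and Cxcl14 zones 5.14 and 5.11. Some ratios or shares fell under the cutoffs in a set. In the Xist set the calls of Tcf7l2 (Shh against Irx1 and Irx1 against Cxcl14), Lgr6 (Cxcl14 against Dmrt2 and Irx1 against Cxcl14) and Tcf7l1 (Irx1 against Dmrt2) were lost, and in the Y-linked set those of Lgr4 (Gjb2+Gjb6 against Cxcl14) and Tcf7l1 (Irx1 against Dmrt2). The 32 ratios were called in all kept cells, which include both sets, so their shared direction was in part fixed by that choice. These sets are also not replicates, since they were captured in the same library.

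**Figure D3:**
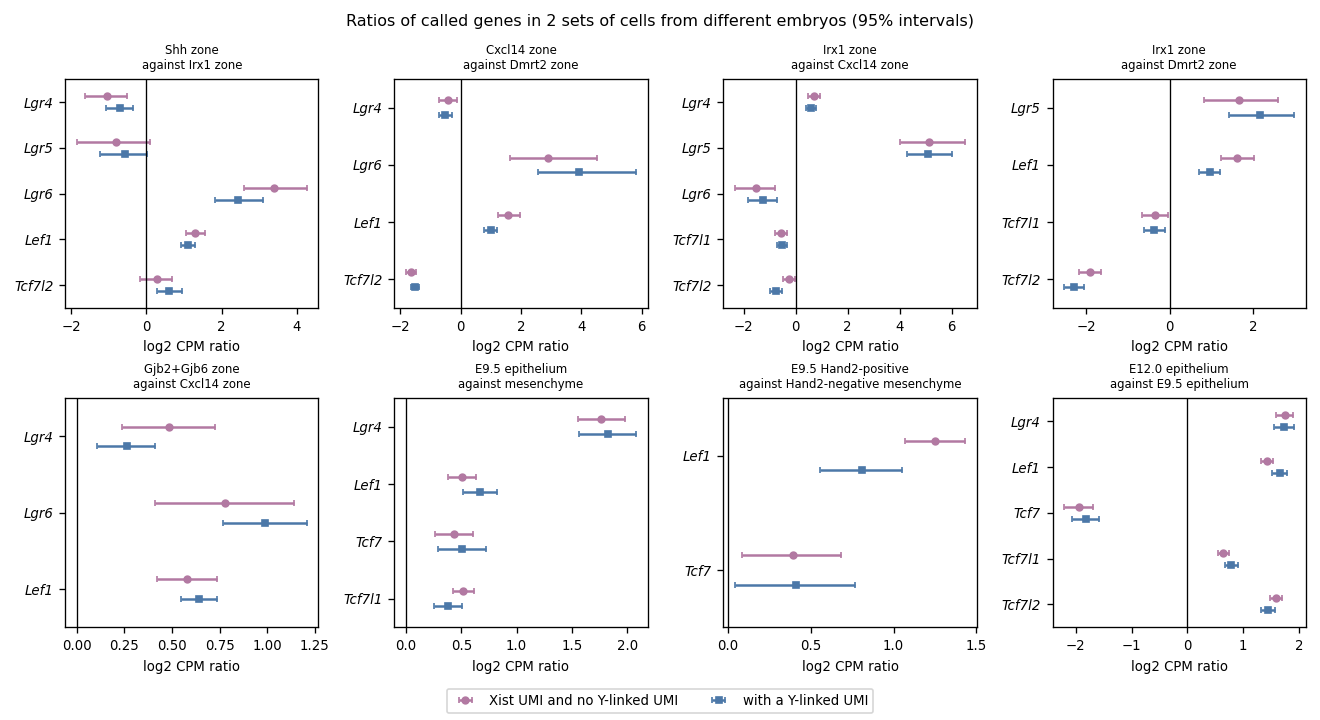
Log2 CPM ratios, with exact 95% intervals, of the genes called in each of the 8 comparisons, computed in cells with a Xist UMI and no Y-linked UMI (circles) and in cells with a Y-linked UMI (squares). Every pair of points lies on the same side of 0, and the intervals of Tcf7l2 and Lgr5 between the Shh and Irx1 zones reach across 0 in at least 1 of the sets.

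The other reception and nuclear genes of the pathway, a list of 39, were counted in the same way. Transcripts of the R-spondin ligands were nearly absent from the epithelium. Rspo2 and Rspo4 had 0 CPM in all 5 gated zones, Rspo1 reached 1.69 CPM at most and Rspo3 0.811 CPM, and none of the 4 was eligible in any comparison. The ligases Znrf3 and Rnf43, which Lgr receptors counteract, were called higher in the Shh zone than in the Irx1 zone and in the Cxcl14 zone than in the Dmrt2 zone. Znrf3 was at 109 CPM in the Shh zone, 153 CPM in the Gjb2+Gjb6 zone, 117 CPM in the Cxcl14 zone, 48.2 CPM in the Irx1 zone and 25.4 CPM in the Dmrt2 zone.

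Between the Shh and Irx1 zones, 30 of the 39 genes were eligible, of which 14 were called higher (background 14.7%) and 5 lower (background 14%). Of the 7 WNT target genes, 6 were eligible and all 6 were called higher (background 14.7%), with a median log2 ratio of 1.88 beside -0.02 over all eligible genes. The largest ratios belonged to Notum, a secreted enzyme that inactivates WNT proteins, at 46.6-fold (24.8 to 98.6), the transcription factor Sp5 at 4.25-fold (3.43 to 5.28) and the feedback inhibitor Nkd1 at 3.71-fold (2.34 to 5.98). The lowest were the receptors Fzd8 at 0.403 and Fzd7 at 0.548 and the co-repressor Ctbp2 at 0.485.

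Between the Cxcl14 and Dmrt2 zones, 8 of 28 eligible genes were called higher (background 8.24%) and 7 lower (background 12%). Tnfrsf19 (22.2-fold, 16.2 to 31.3), Bambi (13.4-fold, 9.53 to 19.3) and the receptor Fzd10 (9.23-fold, 6.75 to 13.0) led the higher ones, and the receptors Fzd4 (0.173), Fzd5 (0.282) and Fzd8 (0.424) the lower. Of the 11 eligible receptor genes, Frizzled and Lrp together, 2 were called higher and 6 lower.

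The Irx1 and Cxcl14 zones had 5 of 27 eligible genes higher (background 11.2%), led by Ctbp2 (1.92-fold), Fzd7 (1.73-fold) and Fzd8 (1.66-fold), and 8 lower (background 10.2%), led by Fzd10 (0.257), Tnfrsf19 (0.362) and Znrf3 (0.412). The Irx1 and Dmrt2 zones had 8 of 29 higher (background 7.31%), led by Bambi (10.7-fold), Tnfrsf19 (8.05-fold) and Axin2 (6.33-fold), and 6 lower (background 9.56%), led by Fzd5 (0.244), Fzd4 (0.295) and Fzd6 (0.410). The Gjb2+Gjb6 and Cxcl14 zones had 4 of 25 higher (background 2.67%), led by Fzd10 (1.74-fold), Axin2 (1.53-fold) and Ctbp2 (1.44-fold), and 5 lower (background 2.9%), led by Bambi (0.314), Fzd1 (0.375) and Tle4 (0.674). Axin2, a direct target gene used as a readout of WNT activity, was at 123, 76.2, 54.5, 49.9 and 8.61 CPM in the Shh, Gjb2+Gjb6, Irx1, Cxcl14 and Dmrt2 zones. The zone highest in Tcf7l2 was thus the lowest in Axin2. The Irx1 zone, lowest in Tcf7l2 at 79.0 CPM, was not the highest in Axin2.

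Whether the genes exclude each other within single cells was examined by joint detection, in the 10439 E12.0 cells with 4000 UMIs or more, each thinned to that number. The number of cells with a UMI of both genes was divided by the number that the product of the 2 shares gives, so that 1 means independence. The interval is that of the joint share alone, with the product of shares taken as known. As a check of independence it is too wide, most so where shares are high. Counts of intervals off 1 can thus understate departures, and an interval that includes 1 does not show independence. Over all 21 pairs of the 7 genes, 2 had an interval below 1 and 6 above it. The share of pairs of all genes with such intervals was not computed, so these counts are not read as particular to the members. Lef1 and Tcf7l2 were found together in 1540 cells where 1658 were expected, a ratio of 0.929 (0.886 to 0.972). Lgr6 and Tcf7l1 had a ratio of 0.875 (0.776 to 0.984). Both ratios are small departures, and without thinning they were 1.00 (0.974 to 1.03) and 1.03 (0.954 to 1.10), so the calls depend on it. Unthinned cells also differ in depth, and the part of depth in the unthinned ratios was not tested.

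Lgr5 and Lgr6 were found together in 20 cells where 22.9 were expected, a ratio of 0.872 (0.533 to 1.35), so exclusion at the level of single cells was not detectable at this depth. The pairs above 1 were Lgr6 and Tcf7 at 1.76 (1.24 to 2.41), Lgr6 and Lef1 at 1.62 (1.49 to 1.77), Lgr4 and Lgr5 at 1.29 (1.07 to 1.55), Lgr4 and Lgr6 at 1.25 (1.11 to 1.40), Lef1 and Tcf7 at 1.22 (1.02 to 1.43) and Lgr4 and Lef1 at 1.07 (1.02 to 1.12). Because zones differ in their levels, zones alone move such ratios. Within the Shh, Irx1, Gjb2+Gjb6, Cxcl14 and Dmrt2 zones no pair of members had an interval below 1, and among ungated cells 1 had, Lef1 and Tcf7l2 at 0.916 (0.845 to 0.990). With intervals this wide, departures within zones could be missed, so exclusion there was not decided. Lgr6 and Lef1 stayed above 1 in the Gjb2+Gjb6 zone at 1.24 (1.08 to 1.42), in the Cxcl14 zone at 1.39 (1.21 to 1.58) and in ungated cells at 1.43 (1.07 to 1.87).

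Over all zones together, Lef1 and Tcf7l2 had different ratios with WNT target genes, which was seen within only some of the zones. Lef1 was found with Axin2 1.36 times as often as the product of shares gives (1.27 to 1.45), with Nkd1 1.44 times (1.26 to 1.65) and with Sp5 1.67 times (1.43 to 1.93). Tcf7l2 was found less often than that with Axin2, at 0.845 (0.774 to 0.920), and with Sp5, at 0.683 (0.535 to 0.859), and its ratio with Nkd1 was 0.994 (0.839 to 1.17). Among the ungated cells alone the ratios with Sp5 were 1.86 (1.42 to 2.40) for Lef1 and 0.559 (0.351 to 0.845) for Tcf7l2. For Lef1 the intervals with each of the 3 targets lay above 1 in the Cxcl14 zone and in ungated cells and included 1 in the other 4 zones, as with Axin2 in the Irx1 zone at 0.993 (0.752 to 1.28). For Tcf7l2 no gated zone had an interval below 1 with any of them, and with Sp5 the ratio was 0.988 (0.643 to 1.43) in the Shh zone and 1.64 (0.847 to 2.86) in the Cxcl14 zone. Lgr6 was above 1 with all 3 targets over all zones, between 1.88 and 2.41, but its intervals included 1 with each of them in the Shh and Gjb2+Gjb6 zones. Lgr5 with Sp5 was at 1.42 (0.709 to 2.54) over all cells and at 0.119 (0.00301 to 0.657) inside the Shh zone, where 1 cell had both and 8.40 were expected.

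**Figure D4:**
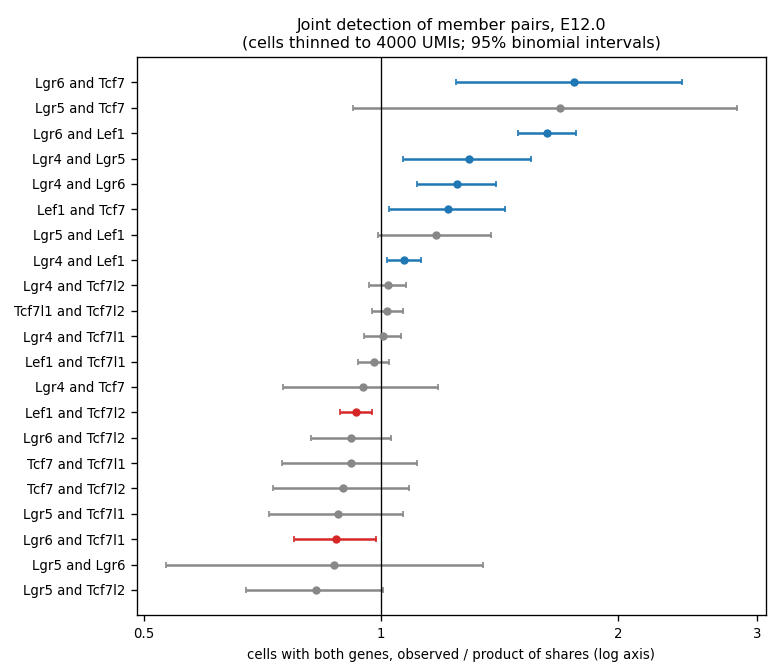
Observed over expected number of E12.0 cells with a UMI of both genes, on a log axis, for the 21 pairs of members after thinning to 4000 UMIs, with exact 95% binomial intervals; the vertical line marks 1. Red points, with intervals below 1, are Lef1 and Tcf7l2 and Lgr6 and Tcf7l1; blue points, with intervals above 1, are 6 pairs led by Lgr6 and Tcf7.

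The promoters of the members were searched for the letters that TCF/LEF proteins recognize, since Lef1 and Tcf7 were measured beside other target genes. RefSeq promoter windows of 300 bases (250 before and 50 after a start site, build GRCm38.p6) were at hand for 6 of the 7 genes, with 11 start sites. The letters CTTTGA or CTTTGT occurred on either strand in 3 of these 11 windows, and in 31.2% of all 32817 windows of that length. The 5 matches are shown with 8 bases on each side, the match in capitals, reading along the gene's own strand, and matches on the opposite strand appear as TCAAAG or ACAAAG.
Lef1, chr3:131156106-131156127, plus strand: atacatggTCAAAGgaaaatag
Lef1, chr3:131156140-131156161, plus strand: ctcagaatACAAAGtaggattg
Lef1, chr3:131156166-131156187, plus strand: gtctgttcTCAAAGtcaggtct
Tcf7l1, chr6:72789060-72789081, minus strand: tgtcaaaaCTTTGTcgccgcag
Tcf7l2, chr19:55895299-55895320, plus strand: atatcaggCTTTGTtcttttga
The 3 Lef1 matches stand before 1 of its 4 start sites, inside the gene and in annotated intron, as does the Tcf7l2 match, while the Tcf7l1 match falls in an annotated exon. UMIs of a gene are counted without regard to its start sites, so the levels above cannot be assigned to them. The genes lie at chr2:109917647-110014257 (Lgr4, ENSMUSG00000050199), chr10:115450311-115587780 (Lgr5, ENSMUSG00000020140), chr1:134983301-135105276 (Lgr6, ENSMUSG00000042793), chr3:131110471-131224356 (Lef1, ENSMUSG00000027985), chr11:52252371-52283014 (Tcf7, ENSMUSG00000000782), chr6:72626378-72789254 (Tcf7l1, ENSMUSG00000055799) and chr19:55741820-55933654 (Tcf7l2, ENSMUSG00000024985) in GRCm38. Lgr4, Lef1 and Tcf7l2 are on the plus strand and the others on the minus strand. Lef1, Tcf7, Tcf7l1 and Tcf7l2 overlap other annotated genes on their own strand, whose transcripts could take or lend UMIs, so their levels are uncertain to that extent.

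At E9.5 the picture was of broad TCF/LEF expression, Lgr4 at the level of Tcf7 in the epithelium, and hardly any Lgr5 or Lgr6. The arch library was gated into 2293 epithelial cells without endoderm markers (Epcam 555 CPM, Prrx1 9.17 CPM), 5709 mesenchymal cells (Twist1 712 CPM, Epcam 9.86 CPM) and smaller groups. Epcam, Prrx1 and Twist1 are gate genes here, so these values restate the gates and are no separate support. In the epithelium Tcf7l1 was at 80.1 CPM (76.9 to 83.4), Lef1 at 51.0 CPM (48.5 to 53.7), Tcf7l2 at 50 CPM (47.5 to 52.7), Tcf7 at 25.9 CPM (24.1 to 27.8) and Lgr4 at 26.1 CPM (24.2 to 28.0). Lgr5 was at 2.27 CPM (1.76 to 2.88) and Lgr6 at 0.372 CPM (0.186 to 0.666), or 67 and 11 UMIs in all.

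Against mesenchyme, 4 of the 7 genes were called higher in the epithelium (background 26.3%) and 0 lower (background 12.7%). Lgr4 was 3.54-fold higher (3.18 to 3.94), from 7.37 CPM (6.80 to 7.97) in mesenchyme, Lef1 1.52-fold (1.43 to 1.62), Tcf7l1 1.43-fold (1.36 to 1.5) and Tcf7 1.36-fold (1.25 to 1.48). Tcf7l2, at 1.3-fold (1.22 to 1.38), stood just under the cutoff. Of the 39 pathway genes, 20 were eligible, 10 were higher (background 26.3%) and 0 lower (background 12.7%), led by the co-repressor Tle5, listed under its older symbol Aes, at 9.79-fold (9.02 to 10.6), Fzd4 at 4.04-fold (3.59 to 4.54) and Znrf3 at 2.20-fold (1.94 to 2.48).

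Within the epithelium, Lgr4 differed with Vgll2, which is high in the oral part, and so did Lgr5, on few UMIs. Lgr4 was at 36.1 CPM (33.1 to 39.3) in the 953 cells with at least 2 Vgll2 UMIs and 14.8 CPM (12.7 to 17.1) in the 1097 cells without any. Lgr5 was at 0.549 CPM (0.237 to 1.08) and 4.25 CPM (3.16 to 5.59). These were 8 and 51 UMIs, found in 0.839% and 4.19% of the cells. The part of free RNA in these Lgr5 counts was not tested. Tcf7l1 was at 72 CPM (67.7 to 76.5) and 90.3 CPM (85.0 to 95.9), whereas Lef1, Tcf7 and Tcf7l2 had overlapping intervals. The median depth of these cells was 14771 and 10563 UMIs. The 46 cells with at least 2 Tfap2b UMIs had Lef1 at 25.8 CPM (15 to 41.3) and Tcf7l2 at 16.7 CPM (8.33 to 29.8). These were 17 and 11 UMIs. The 2095 cells without Tfap2b had Lef1 at 52.8 CPM (50 to 55.6) and Tcf7l2 at 51.2 CPM (48.5 to 54). Tcf7l1 went the other way, at 124 CPM (98.9 to 154) with Tfap2b and 77.96 CPM (74.7 to 81.4) without. Tcf7 had overlapping intervals, at 33.4 CPM (20.9 to 50.5) and 25.7 CPM (23.8 to 27.7).

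In mesenchyme, the distal cells marked by Hand2 had more Lef1. It was at 61.8 CPM (56.8 to 67.2) in 539 Hand2-positive and 29.0 CPM (27.7 to 30.3) in 4665 Hand2-negative cells, 2.13-fold (1.94 to 2.35), and Tcf7 was 1.40-fold higher (1.21 to 1.62). These were the 2 genes called higher (background 9.46%), and 0 were called lower (background 2.07%). For Tcf7l1 the ratio was 1.00 (0.913 to 1.10). Of 21 eligible pathway genes, 8 were higher (background 9.46%), led by Nkd1 (3.27-fold), Fzd4 (2.87-fold) and Bambi (2.77-fold), and 1 was lower (background 2.07%), Fzd7 (0.609).

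The mesoderm core, 581 cells with Tcf21 or Msc, had the highest Lef1 and Tcf7 of the 7 E9.5 groups plotted. Lef1 was at 86.7 CPM (80.4 to 93.3) and Tcf7 at 80.5 CPM (74.5 to 86.9), against 25.9 CPM of Tcf7 in the epithelium, the next highest of them. Lgr5 was also highest there, at 7.34 CPM (5.6 to 9.45), with endoderm at 4.13 CPM (2.36 to 6.70) overlapping, and Lgr6 had no UMI (0 of 581 cells, which allows a share of up to 0.516%). Rspo1, a ligand of these receptors, was at 14.2 CPM in the core and 1.15 CPM in the epithelium, and Rspo2 was at 41.5 CPM in endoderm and 3.89 CPM in the epithelium. Endoderm, 269 cells, had the highest Tcf7l2 of these groups at 62.4 CPM (54.8 to 70.8), with the mesoderm core at 50.3 CPM (45.6 to 55.4) overlapping. Its Lef1 was low, at 24 CPM (19.4 to 29.4). Lef1 was thus 27.8% of the summed UMIs of both genes in endoderm and 50.5% in the epithelium. The 228 epithelial cells between the epithelium and endoderm gates are not plotted. They had Tcf7l2 at 78.3 CPM (68.5 to 89.0) and Lef1 at 62.4 CPM (53.8 to 72.1).

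Free RNA can add UMIs to cells that do not express a gene. At E9.5 its part in the shares of cells with a UMI was not tested, and low shares there are not read as expression. At E12.0 no cell type without these genes was captured, and the lowest zone shares, 0.562% for Lgr5 and 1.41% for Lgr6, bound what free RNA adds there. Joint detection in the E9.5 epithelium, over 2258 thinned cells, gave 0 of 21 pairs with an interval below 1 and 0 above. These intervals are of the same wide kind as at E12.0, so independence is not shown.

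**Figure D5:**
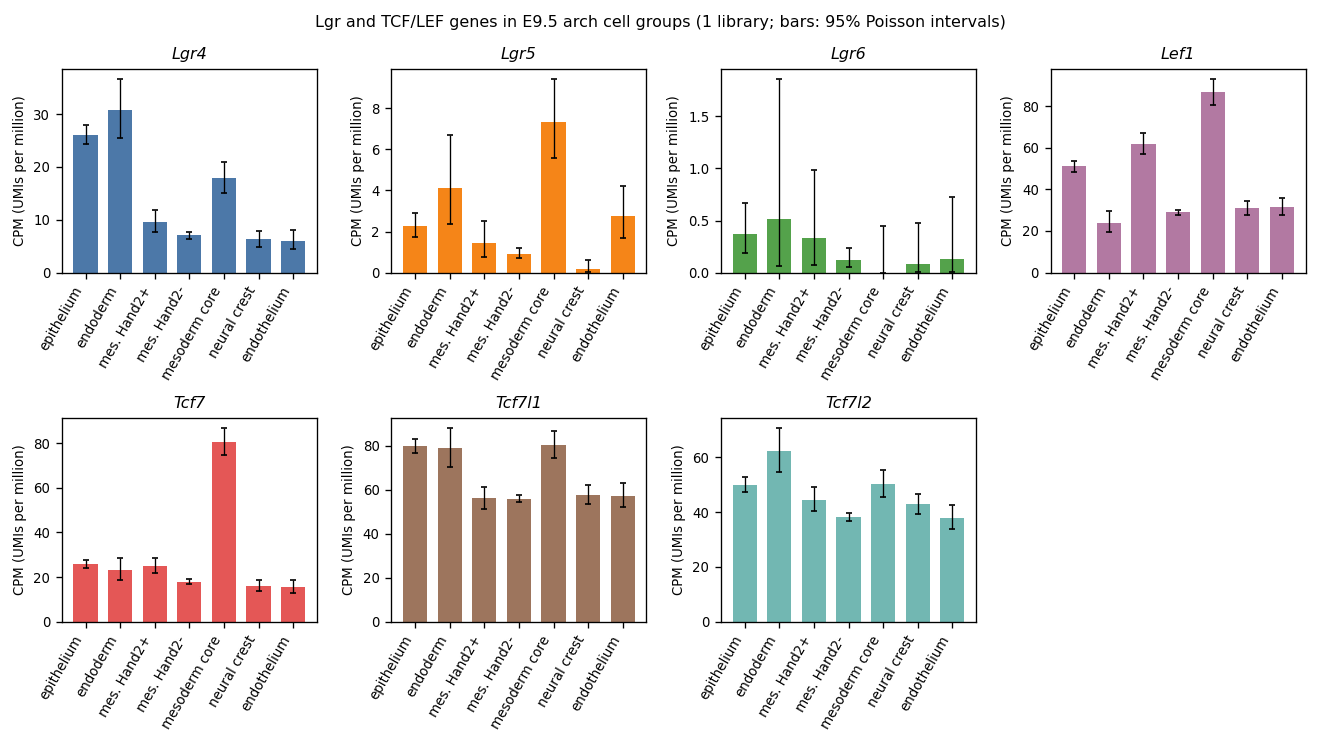
Expression of the 7 genes in the E9.5 arch groups, as CPM on a separate linear axis per gene, with exact 95% Poisson intervals; mes. stands for mesenchyme. Lef1, Tcf7 and Lgr5 are highest in the mesoderm core, Lgr4 in endoderm and epithelium, and Lgr6 stays under 1 CPM in every group.

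The 2 stages can be set side by side only as 2 libraries. All 11355 kept E12.0 cells were set against the 2293 epithelial cells of E9.5. The latter leave out every cell with a Foxa1, Foxa2 or Pax1 UMI, while the E12.0 cells were not filtered for these genes. Stage, sorting, gating, capture and gene model cannot be told apart. Of the 7 genes, 4 were called higher at E12.0 (background 34.4%) and 1 lower (background 26%). These backgrounds show how far the 2 sets of cells differ over all eligible genes. Lgr4 was 3.43-fold higher (3.18 to 3.70), Lef1 3.04-fold (2.88 to 3.21), Tcf7l2 2.84-fold (2.69 to 3.0) and Tcf7l1 1.60-fold (1.53 to 1.68). Tcf7 was the exception among the factors, at 7.31 CPM (570 UMIs) against 25.9 CPM (765 UMIs), a ratio of 0.283 (0.253 to 0.315). Lgr6 was at 21.4 CPM against 0.372 CPM, 57.4-fold (32.0 to 115), and Lgr5 at 9.28 against 2.27 CPM, 4.09-fold (3.18 to 5.34), but neither had a UMI in 15% of the cells. Of 26 eligible pathway genes, 19 were higher (background 34.4%), led by Fzd10 (30.5-fold), Tnfrsf19 (10.8-fold) and Rnf43 (7.81-fold), and 3 lower (background 26%), Fzd4 (0.602), Ctbp2 (0.693) and Fzd2 (0.703).

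Across the 6 E12.0 and 7 E9.5 groups, the genes whose log2(CPM + 5) correlated best with each member were listed among 9355 genes, as a description. The 13 points share 2 libraries, which also differ as a whole, and over the 6 E12.0 groups alone none of the genes below was among the 3 best for its member. For Lgr6 they were Wnt10b, a WNT ligand gene, Jakmip2 and the claudin gene Cldn1, each at a Pearson correlation of 0.97. For Lgr5 they were Zfp536 (0.94), Nrxn3 (0.93) and Osbpl6 (0.91), and for Lgr4 Slc4a3, Ago1 and Ylpm1 (0.99 each). For Lef1 they were 1810026J23Rik (0.96), Kcnq1ot1 (0.95) and Bnc2 (0.94), and for Tcf7 Shc2 (0.95), Pkig and Fgf10 (0.90 each). For Tcf7l1 they were Churc1, Fjx1 (0.98 each) and Lca5 (0.97), and for Tcf7l2 1190002N15Rik, Clpx (0.97 each) and Cblb (0.95).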

How the data were processed

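The authors deposited UMI counts for each gene in each cell barcode of both libraries, made with Cell Ranger (version 2.0.0 per the labels, 3.1.0 at E12.0 and 6.1.2 at E9.5 per the file headers) on mm10, GRCm38, without normalization. Barcodes were already selected as cells. From these counts, cells were filtered as in the study's methods and assigned to groups by the UMI gates given with the results. Shh took precedence. Of the other cells, at least 2 Irx1, 1 Dmrt2, 3 Gjb2+Gjb6 or 5 Cxcl14 UMIs were required, and a zone excluded cells passing another gate, except that Gjb2+Gjb6 cells could pass the Cxcl14 gate. At E9.5, epithelium needed 3 Epcam+Cdh1 UMIs with fewer than 3 of Prrx1+Prrx2+Twist1 and no UMI of Foxa1, Foxa2 or Pax1, and mesenchyme the reverse of the first condition. The other E9.5 groups were removed first, with 3 UMIs of Cdh5+Pecam1+Kdr (endothelium), 2 of Sox10+Foxd3 (neural crest) or 2 of Tcf21+Msc (mesoderm core). A further small group was also removed, and is not reported here. Epithelial cells with 2 UMIs of the endoderm genes are the endoderm, and Hand2-positive mesenchyme has 2 Hand2 UMIs.

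The kept E12.0 cells held 77936364 UMIs (503 to 21712 per cell) and the kept E9.5 cells 166191431 (500 to 40102 per cell), so precision depends on the size of a group. Scrublet, in scanpy 1.11.5, called 661 (5.82%) and 331 (2.6%) of them doublets, which were kept. The share a count of 0 allows is 3 counts of the total. The named pathway genes are the 3 with the largest ratio in each direction per comparison, and the genes most like a member the 3 with the highest correlation among genes detected in 15% or more of the cells of some group. The members, lists and gates were chosen with earlier results of these data known. Groups marked as chosen after their values were seen, and joint detection with gate genes, came later still. The comparison was run on simulated Poisson counts with no further spread between cells. Joint detection was run on simulated cells with the same chance of detection, drawn independently or with part of the joint cells removed. These settings do not show how the intervals hold in real cells. Alternatives changed gates, size criterion, scaling, cell filter, doublets, embryos and thinning. Python 3.11.15, numpy 2.4.6, scipy 1.17.1, pandas 2.3.3 and matplotlib 3.10.9 were used. Positions are from GENCODE vM21.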

Additional observations from a re-analysis of the deposited data

How the results depend on the processing

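Under 22 alternatives, 534 of the 535 ratios of called genes kept their direction. The genes were called in these same data, so this count describes dependence on settings and is no separate support. The exception was Lgr5 between the Shh and Irx1 zones, whose log2 ratio was 0.0946 with every gate lower (-0.43 as reported). Of the 32 calls, 12 were kept under every alternative, among them Lef1 in 5 of its 7 comparisons and Tcf7l2 in both comparisons with the Dmrt2 zone. Counts of called genes moved beyond 1.5 times in the following cases. Between the Shh and Irx1 zones the 5 calls became 3 with every gate lower, 3 without called doublets and 2 at a ratio of at least 2. Between the Irx1 and Cxcl14 zones the 5 became 3 with every gate lower, with a UMI in at least 25% of cells, with at most 5% mitochondrial UMIs and in cells with Xist and no Y-linked UMI, and 2 at a ratio of at least 2. Between the Gjb2+Gjb6 and Cxcl14 zones the 3 became 0 at a ratio of at least 2 and 5 without a minimum share of cells. At E9.5 the 4 of epithelium against mesenchyme became 1 at a ratio of at least 2, and the 2 of Hand2-positive against Hand2-negative mesenchyme became 1 at that ratio and 5 without a minimum share. The 2 pairs with joint detection below independence at E12.0 became 0 without thinning and 1 when thinned to 2500 UMIs. They also became 0 where 2 or more UMIs per gene were required, a count that was made without thinning. The cause of these moves was not tested. No paired analysis was possible because each group has 1 sample and the results come from no test. Depth limits Lgr5 and Lgr6 most, since a UMI of each was found in under 15% of the cells of most groups. For Tcf7 this held in the E12.0 zones, where its highest share was 13.2%. At E9.5 a Tcf7 UMI was found in 26.5% of epithelial cells.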

Other observations

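Gate genes not used in the pairs above were also counted together with the members in single E12.0 cells, a count chosen after the data were seen. These genes define the zones, so the ratios largely restate the zone levels and are no separate support. Lgr5 was found with Shh 4.23 times as often as the product of shares gives (3.01 to 5.77) and with Irx1 2.88 times (2.31 to 3.55), but with Gjb6 at 0.153 (0.0498 to 0.358) and with Cxcl14 at 0.280 (0.205 to 0.373). Before thinning, cells with 5 to 9 Shh UMIs held 3 Lgr5 UMIs and those with 10 or more held 0. Lgr6 was found with Gjb6 2.82 times (2.48 to 3.20) and with Dmrt2 at 0.165 (0.0536 to 0.385), where 5 cells had both and 30.3 were expected. For Lef1 and Tcf7l2 the ratios with Dmrt2 were 0.578 (0.467 to 0.707) and 1.76 (1.56 to 1.98). Periderm-gated cells (210 cells with at least 4 UMIs of Grhl3, Pkp1 and Nebl, outside the Shh gate) had Lef1 at 82.8 CPM (69.1 to 98.4), Tcf7l2 at 151 CPM (133 to 172) and Tcf7 at 3.21 CPM (1.04 to 7.49). The 26 cells that passed both the Irx1 and the Cxcl14 gate had a median of 13844 UMIs, more than any single zone, with Lgr5 at 8.48 CPM and Lgr6 at 25.4 CPM. The part of depth in these levels was not tested.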
